A study of Mus musculus with 6 samples.

Results

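Reads that the deposited lists annotate as piRNA were taken from 6 small RNA libraries of mouse serum. Every listed sequence whose class reads exactly piRNA was kept and summed by the feature it was assigned to, which gave 73 piRNA features of 1919 features in all. Of these, 5 carry the UCSC transcript name uc012ath.2 (the plain name and the names ending in _4344, _4345, _4346 and _4347) and 68 carry other names. The uc012ath.2 features held 99.4% of the 139001 piRNA reads, and the 68 other features held 845 reads.

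The series compared 3 library preparation kits on serum RNA, with 2 libraries for each of NEBNext Multiplex, TruSeq v2 and TailorMix v2. All serum came from healthy male and female 129/SVj mice aged 2 to 9 months that were sedated with tribromoethanol for bleeding. The libraries shared 1 RNA extraction method (miRNeasy serum/plasma, elution in 12 μl) and 1 size selection of the amplified library (125 to 153 bp). The labels number the serum 1 and 2 within each kit but do not say which mouse gave which library, so a p-value here measures the spread between these libraries, which may be technical.

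piRNAs are short RNAs bound by PIWI proteins, a branch of the Argonaute family. They are made mainly in germ cells from long precursor transcripts, and guide the silencing of transposable elements. A read is listed as piRNA here for the position it mapped to, which says nothing of PIWI binding. In serum, the number of cells that release an RNA and the amount that each releases cannot be told apart.

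Annotated reads, the sum of both lists of a library, lay between 5144833 and 26256012 per library. tRNA took 95.5% to 98.9% of them and miRNA 0.856% to 3.76%. Beside the tissue label, 4 miRNAs common in serum, chosen as blood cell and liver miRNAs, were detected in all 6 libraries. Detection alone does not test the tissue or their origin. Of miRNA reads, miR-16-5p had 0.374% to 5.14%, miR-451a 0.0566% to 3.04%, miR-122-5p 0.0177% to 4.09% and miR-223-3p 0.0860% to 0.517%.

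TailorMix libraries held the highest share of piRNA reads and TruSeq libraries the lowest, and nearly all of it was uc012ath.2. The uc012ath.2 features had 36613 and 35484 reads in the NEBNext libraries, 10387 and 8538 in TruSeq, and 24074 and 23060 in TailorMix, replicate 1 first in each pair. As a share of annotated reads this was 0.139% (95% Wilson interval 0.138% to 0.141%) and 0.209% (0.207% to 0.211%) for NEBNext. It was 0.0894% (0.0877% to 0.0911%) and 0.0907% (0.0888% to 0.0926%) for TruSeq, and 0.468% (0.462% to 0.474%) and 0.435% (0.429% to 0.441%) for TailorMix. The kits did not overlap, and the TruSeq libraries lay within each other's interval while the NEBNext libraries and the TailorMix libraries did not. Such intervals cover counting error only, since PCR copies without molecular identifiers are not independent molecules.

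The mean uc012ath.2 share was 0.451% ± 0.0233 (SD, n = 2) for TailorMix, 0.174% ± 0.0491 (SD, n = 2) for NEBNext and 0.0900% ± 0.000908 (SD, n = 2) for TruSeq. TailorMix was 5.02-fold above TruSeq and 2.59-fold above NEBNext, and NEBNext was 1.93-fold above TruSeq. The two-sided exact permutation test of kit gave p = 0.0667, the smallest that 15 groupings of 6 libraries allow. No single value can therefore pass 0.05 in this test. Over the family of 12 single values tested, the Benjamini-Hochberg adjusted p of this exact permutation test was 0.200. All piRNA reads together gave the same order, with means of 0.452% ± 0.0232, 0.174% ± 0.0492 and 0.0942% ± 0.00636 (SD, n = 2) for TailorMix, NEBNext and TruSeq, and the same p of 0.0667 in the exact permutation test.

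The order of TailorMix and NEBNext turned when tRNA reads were left out of the denominator. Of annotated reads other than tRNA, uc012ath.2 made up 13.1% and 16.4% in NEBNext, 10.3% and 9.75% in TailorMix, and 2.82% and 2.87% in TruSeq. NEBNext was then 1.47-fold above TailorMix, with means of 14.8% ± 2.34 and 10.0% ± 0.393 (SD, n = 2), and TailorMix was 3.52-fold above TruSeq, whose mean was 2.85% ± 0.0379 (SD, n = 2). TruSeq was therefore lowest on both scales, whereas the highest kit depended on whether tRNA reads were counted. tRNA made up 98.8% ± 0.147 of annotated reads in NEBNext, 96.8% ± 0.0103 in TruSeq and 95.5% ± 0.0558 in TailorMix (SD, n = 2).

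**Figure D1:**
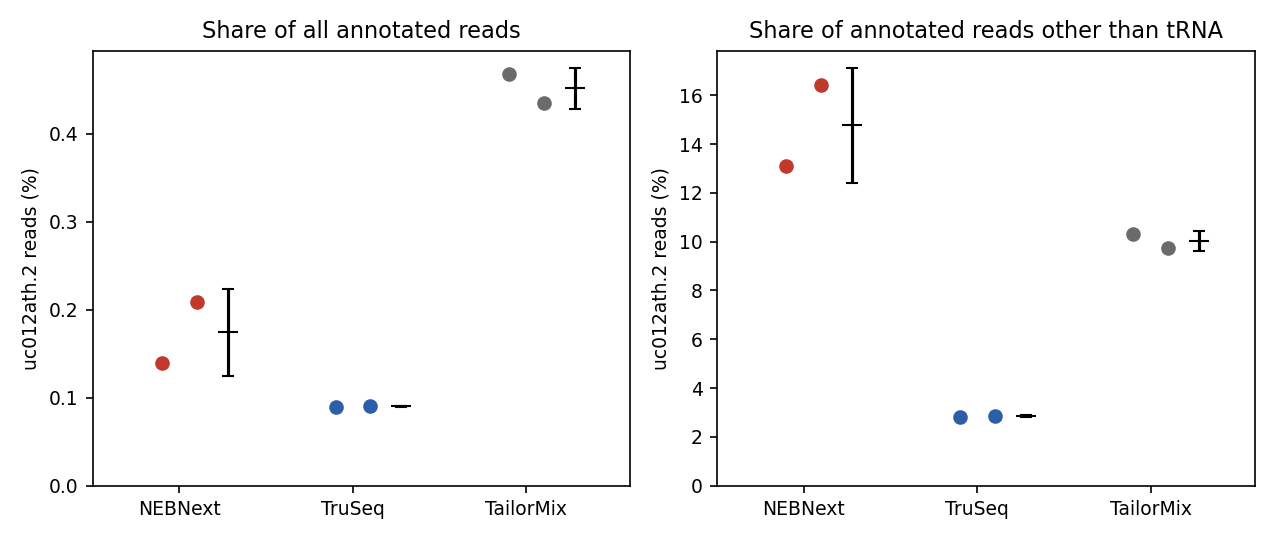
uc012ath.2 reads as a percent of all annotated reads (left) and of annotated reads other than tRNA (right), for 2 libraries of each kit. Dots are libraries and bars beside them are the mean ± SD. TailorMix is highest on the left, at 0.435% and 0.468%, and NEBNext is highest on the right, at 13.1% and 16.4%.

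Among reads that were neither tRNA nor miRNA, uc012ath.2 was the main component in every library. It made up 67.3% and 69.7% of them in NEBNext, 62.2% and 56.4% in TruSeq, and 60.1% and 58.3% in TailorMix. All piRNA reads made up 58.3% to 69.8% of that remainder, which otherwise holds rRNA, snRNA and snoRNA fragments. The kits overlapped here, since a TruSeq library lay on each side of both TailorMix libraries.

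The NEBNext libraries differed from each other more in the share than in the number of uc012ath.2 reads. Their annotated reads stood in a ratio of 1.55 (replicate 1 to replicate 2) and their miRNA reads in a ratio of 1.36, but their uc012ath.2 reads in a ratio of 1.03. For TruSeq the same ratios were 1.23, 1.25 and 1.22, and for TailorMix 0.971, 0.983 and 1.04. The gap between the ratio of annotated reads and that of uc012ath.2 reads was widest in the NEBNext pair, and in the TailorMix pair the ratios lay on either side of 1. The log2 ratio of TailorMix to NEBNext in uc012ath.2 share was 1.11 without NEBNext replicate 1 and 1.69 without NEBNext replicate 2.

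uc012ath.2 reads held more distinct sequences than a single short RNA contains. Between 1647 and 7193 distinct sequences per library were assigned to the uc012ath.2 features. An RNA of 30 bases, close to the length of a mature piRNA, holds 136 different stretches of at least 15 bases, the shortest read kept. The features _4344, _4345 and _4346 each exceeded 136 sequences in 6 of 6 libraries, with 163 to 375, 138 to 893 and 1059 to 5554 sequences, and _4347 did so in 5 of 6 libraries, with 132 to 568. The plain uc012ath.2 feature had 8 to 24. Reads were mapped without mismatches, but the lists give neither feature lengths nor read positions, and the sources used here do not say whether a read may reach past the end of a feature. The reads are therefore called uc012ath.2 reads below, with no statement on PIWI-bound piRNA.

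Of the 5 features, uc012ath.2_4346 took close to the same part of uc012ath.2 reads with every kit when all sequences were counted. It held 75.0% and 74.0% of them in NEBNext, 76.6% and 74.4% in TruSeq, and 74.6% and 73.6% in TailorMix. The kits overlapped, and the means of 74.5% ± 0.698, 75.5% ± 1.57 and 74.1% ± 0.740 (SD, n = 2) gave p = 0.533 in the exact permutation test (Benjamini-Hochberg adjusted p = 0.533). With sequences under 4 counts left out, _4346 held 74.5% and 73.0% in NEBNext and 80.5% and 77.2% in TruSeq. TailorMix had 72.6% and 70.5%, so the kits did not overlap there (p = 0.0667 in the exact permutation test, the smallest possible). Feature lengths are not given, so these are shares of reads and not levels per length.

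The rest of the reads was divided differently by the 3 kits. uc012ath.2_4347 had 13.7% and 14.2% of uc012ath.2 reads in NEBNext, 3.10% and 3.58% in TruSeq, and 3.26% and 3.15% in TailorMix. NEBNext stood apart, 4.17-fold above TruSeq and 4.35-fold above TailorMix, whose libraries overlapped each other. The means were 13.9% ± 0.381 for NEBNext, 3.34% ± 0.342 for TruSeq and 3.20% ± 0.0766 for TailorMix (SD, n = 2), with p = 0.200 in the exact permutation test (Benjamini-Hochberg adjusted p = 0.267). Where kits overlap each other, this test cannot give its smallest p, however far the remaining kit lies from them. This p is therefore no measure of the distance of NEBNext.

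uc012ath.2_4344 lay highest in TruSeq by the same measure. Its share of uc012ath.2 reads was 9.68% and 9.77% in TruSeq, against 1.77% and 1.40% in NEBNext and 1.68% and 1.53% in TailorMix. The TruSeq mean of 9.72% ± 0.0654 was 6.13-fold above the NEBNext mean of 1.59% ± 0.265 and 6.06-fold above the TailorMix mean of 1.60% ± 0.110 (SD, n = 2). NEBNext and TailorMix overlapped, and the exact permutation test gave p = 0.200 (Benjamini-Hochberg adjusted p = 0.267). The same limit of the test applies, so this p is no measure of the distance of TruSeq.

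uc012ath.2_4345 was the feature that stood out in TailorMix. It had 20.3% and 21.6% of uc012ath.2 reads there, 9.50% and 10.4% in NEBNext, and 10.4% and 12.1% in TruSeq. The TailorMix mean of 20.9% ± 0.874 was 2.11-fold above that of NEBNext, 9.93% ± 0.610, and 1.86-fold above that of TruSeq, 11.2% ± 1.25 (SD, n = 2). The exact permutation test gave p = 0.133 (Benjamini-Hochberg adjusted p = 0.229). The NEBNext and TruSeq libraries met at 10.4%, so the same limit of the test applies. The plain uc012ath.2 feature was marginal in every library, with 10 to 49 reads, 0.0282% to 0.231% of uc012ath.2 reads, and p = 0.333 in the exact permutation test (Benjamini-Hochberg adjusted p = 0.364). Each kit thus had 1 feature whose share lay above that in both other kits, with a 4.17-fold to 6.13-fold difference for _4347 and _4344 and a smaller difference for _4345, and these shares do not depend on the tRNA content of a library.

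**Figure D2:**
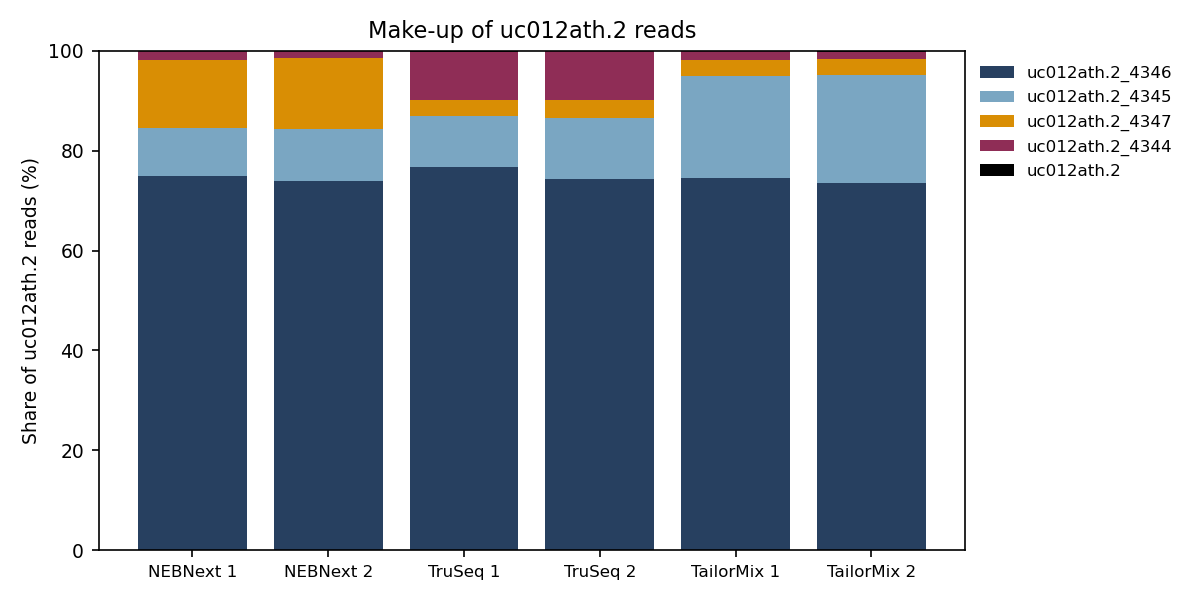
Share of uc012ath.2 reads (%) that each of the 5 listed features took in each of the 6 libraries, as stacked bars that sum to 100%. The part of _4346 is 73.6% to 76.6% throughout, while _4347 is widest in NEBNext, _4344 in TruSeq and _4345 in TailorMix.

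The features were then compared on the scale of annotated reads with edgeR. The quasi-likelihood test was fitted across the 930 features of both lists that had 4 counts or more in 2 libraries or more, with annotated reads as library size. A fold change is thus a change in share of annotated reads, and a call means a Benjamini-Hochberg adjusted p below 0.05. Of the 73 piRNA features 6 passed this filter, the 5 uc012ath.2 features and uc029vjt.1, so that 67 piRNA features were too sparse for the test.

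Between TruSeq and NEBNext, uc012ath.2_4347 was lower and uc012ath.2_4344 higher in TruSeq. uc012ath.2_4347 had 27.7 and 32.5 RPM (reads per 1000000 annotated reads) in TruSeq and 191 and 297 in NEBNext. Its log2 fold change was -3.02 ± 0.35 (SE) with an edgeR adjusted p of 0.00690 (Benjamini-Hochberg). It was called, and lower in TruSeq, in 14 of 14 settings, those that left out single libraries included.

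uc012ath.2_4344 had 86.5 and 88.6 RPM in TruSeq and 24.7 and 29.2 in NEBNext, a log2 fold change of 1.70 ± 0.27 (SE) with an edgeR adjusted p of 0.0148 (Benjamini-Hochberg). This call was lost on leaving out NEBNext replicate 1 or 2 or TruSeq replicate 1 or 2, with edgeR adjusted p values (Benjamini-Hochberg) between 0.0510 and 0.0569, and with annotated reads other than tRNA as library size, where the log2 fold change was 0.26 and the adjusted p 0.406. For _4346, _4345 and the plain feature, the log2 fold changes of -0.93, -0.79 and 1.01 did not pass, with edgeR adjusted p values (Benjamini-Hochberg) of 0.144 to 0.200. The 2 calls among 6 piRNA features compare with 29.0% of all 930 features called in this comparison, 12.9% higher and 16.1% lower in TruSeq, so the share of piRNA features called was near the background. The median log2 fold change was -0.79 over the 5 uc012ath.2 features and -0.57 over all features. With annotated reads other than tRNA as library size, _4346 and _4345 were called lower in TruSeq. Their log2 fold changes were -2.355 and -2.20, with edgeR adjusted p values (Benjamini-Hochberg) of 0.0105 and 0.00813. The plain feature turned to -0.46 there, and the median of all features was -2.00. The share of all features called in that setting was not counted.

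Between TailorMix and NEBNext, uc012ath.2_4345, uc012ath.2_4344 and the plain feature were higher in TailorMix. uc012ath.2_4345 had 951 and 938 RPM in TailorMix and 132 and 217 in NEBNext, a log2 fold change of 2.44 ± 0.38 (SE) with an edgeR adjusted p of 0.0119 (Benjamini-Hochberg). uc012ath.2_4344 had 78.7 and 66.4 against 24.7 and 29.2, a log2 fold change of 1.43 ± 0.26 (SE) with an edgeR adjusted p of 0.0176 (Benjamini-Hochberg). The groups did not overlap for either feature, but how many of all features separate these kits likewise was not counted. The plain feature had 6.41 and 9.24 RPM against 0.952 and 0.589, a log2 fold change of 3.32 ± 0.54 (SE) with an edgeR adjusted p of 0.0132 (Benjamini-Hochberg), but rests on 10 to 49 reads per library.

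uc012ath.2_4346, which held most of the reads, had 3491 and 3200 RPM in TailorMix and 1046 and 1546 in NEBNext. Its log2 fold change of 1.37 ± 0.41 (SE) missed the threshold, with an edgeR adjusted p of 0.0615 (Benjamini-Hochberg). uc012ath.2_4347, at 152 and 137 against 191 and 297, had a log2 fold change of -0.75 ± 0.33 (SE) and an edgeR adjusted p of 0.149 (Benjamini-Hochberg). It passed the threshold with TMM scaling, at -1.69, and in DESeq2, at -1.74. The 3 calls among 6 piRNA features, all higher in TailorMix, compare with 31.2% of all features called, 23.7% higher and 7.53% lower. With TMM scaling, and likewise in DESeq2, 2 features were higher and 1 lower. With annotated reads other than tRNA as library size 0 were higher and 1 was lower, and there the log2 fold changes of _4344 and _4346 turned to -0.52 and -0.56.

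Leaving out single libraries changed the calls between TailorMix and NEBNext, but not the direction of the called features. Their log2 fold changes then lay between 2.12 and 2.83 for _4345, 1.30 and 1.55 for _4344, and 3.03 and 3.70 for the plain feature. How many of all features were called in those fits was not counted. Without TailorMix replicate 2 the edgeR test called 0 of 5 piRNA features tested, although 3 had an unadjusted p below 0.05, and DESeq2 on all 6 libraries called 3. Without NEBNext replicate 1 or 2 it called 1 (_4345), and without TailorMix replicate 1 it called 1, the plain feature. The median log2 fold change was 1.43 over the 5 uc012ath.2 features and 0.67 over all features.

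Between TailorMix and TruSeq, 4 of the 5 uc012ath.2 features were higher in TailorMix. uc012ath.2_4345 had 951 and 938 RPM in TailorMix and 92.6 and 110 in TruSeq, a log2 fold change of 3.22 ± 0.39 (SE) with an edgeR adjusted p of 0.00676 (Benjamini-Hochberg), and was called in 14 of 14 settings. uc012ath.2_4346 had 3491 and 3200 against 685 and 675, a log2 fold change of 2.30 ± 0.42 (SE) with an edgeR adjusted p of 0.0164 (Benjamini-Hochberg). uc012ath.2_4347 had 152 and 137 against 27.7 and 32.5, a log2 fold change of 2.26 ± 0.34 (SE) with an edgeR adjusted p of 0.0103 (Benjamini-Hochberg). No TruSeq library reached a TailorMix library in these 3 features, but how many of all features separate these kits likewise was not counted.

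The plain feature, with 6.41 and 9.24 RPM against 2.07 and 1.06, had a log2 fold change of 2.31 ± 0.53 (SE) and an edgeR adjusted p of 0.0282 (Benjamini-Hochberg). It rests on 10 to 49 reads per library. Neither edgeR with TMM scaling nor DESeq2 called it, with adjusted p values (Benjamini-Hochberg) of 0.192 and 0.197. uc012ath.2_4344 went the other way, at 78.7 and 66.4 in TailorMix against 86.5 and 88.6 in TruSeq, but its log2 fold change of -0.27 ± 0.26 (SE) did not pass, with an edgeR adjusted p of 0.444 (Benjamini-Hochberg). It passed with TMM scaling, at -1.44, and in DESeq2, at -1.45. The 4 calls among 6 piRNA features compare with 40.0% of all features called, 30.4% higher and 9.57% lower in TailorMix. With TMM scaling 1 was higher (_4345) and 1 lower (_4344). In DESeq2 3 were higher (_4345, _4346 and _4347) and 1 lower (_4344). Leaving out TruSeq replicate 1 or TailorMix replicate 1 left 1 call, and leaving out TruSeq replicate 2 or TailorMix replicate 2 left 2. The median log2 fold change was 2.30 over the 5 uc012ath.2 features and 1.33 over all features.

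The scaling moved all features, not only these. The median log2 fold change of all features was 0.67 between TailorMix and NEBNext with annotated reads as library size, -0.25 with TMM scaling, -0.29 in DESeq2 and -1.23 with reads other than tRNA. Under the same 4 scalings it was -0.57, -0.36, -0.38 and -2.00 between TruSeq and NEBNext, and 1.33, 0.14, 0.18 and 0.83 between TailorMix and TruSeq. Between TailorMix and NEBNext with annotated reads as library size, _4345, at 2.44, lay above the median of all features and _4347, at -0.75, below it. The comparisons share libraries pairwise and are not independent.

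**Figure D3:**
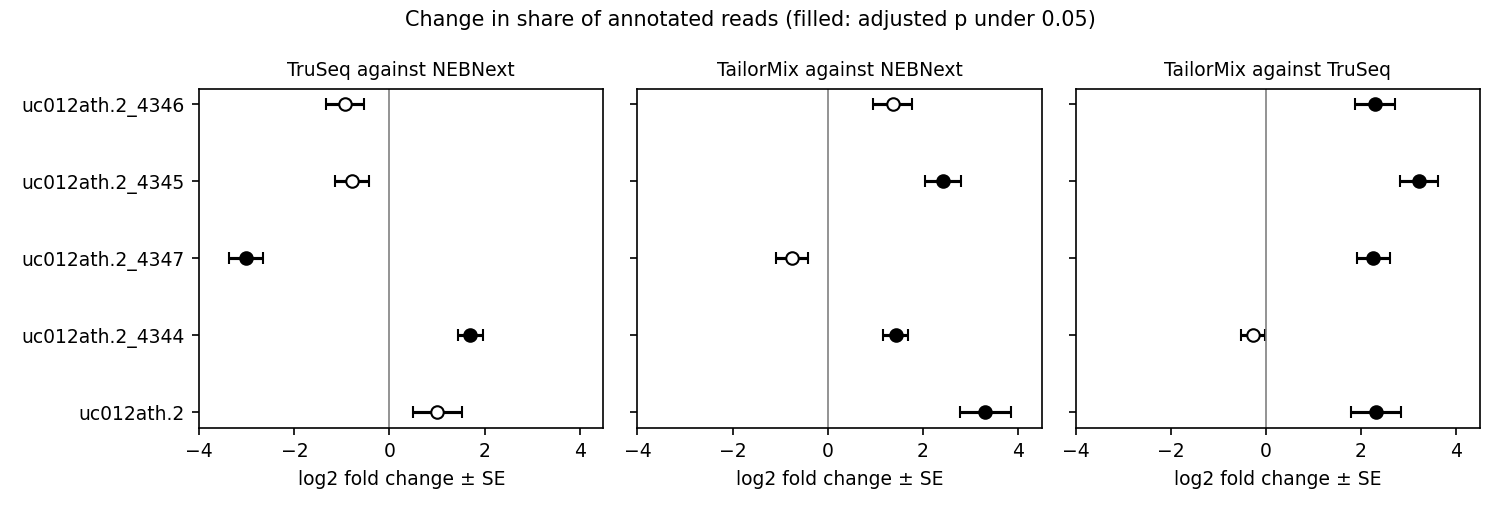
log2 fold change ± SE of the 5 uc012ath.2 features in each pair of kits, as change in share of annotated reads, from edgeR. Filled points passed an adjusted p of 0.05. In the left panel _4347 is at -3.02 and _4344 at 1.70, and in the right panel all features except _4344 are filled and right of 0, although with TMM scaling only 1 of them is still called higher.

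**Figure D4:**
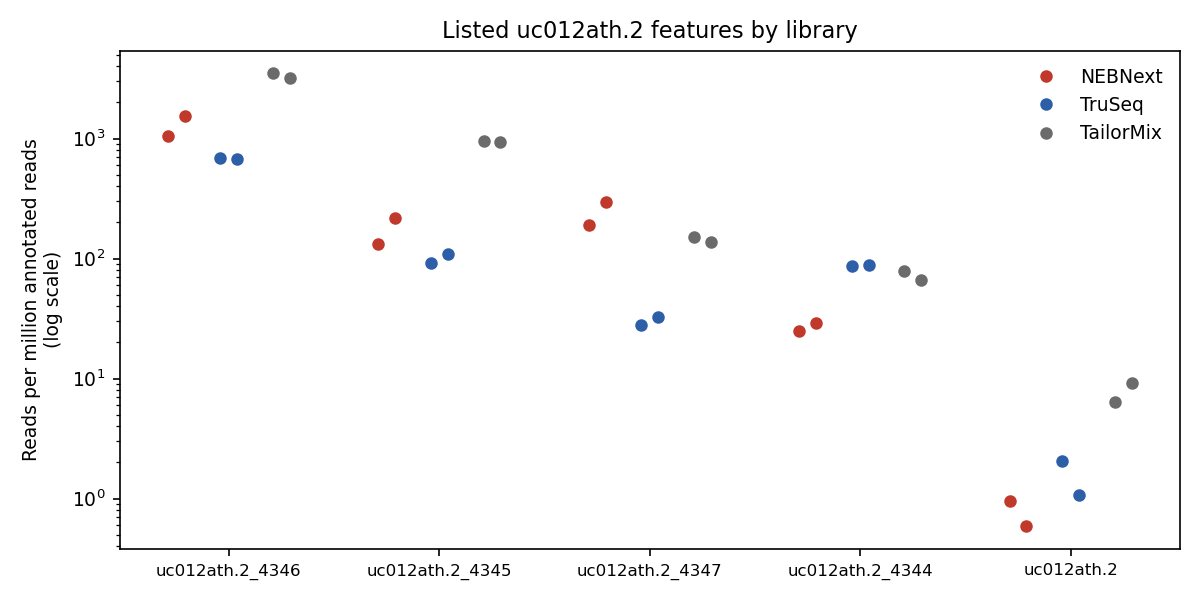
RPM (reads per 1000000 annotated reads, log axis) of each uc012ath.2 feature, 2 libraries per kit. TailorMix is highest for _4346, _4345 and the plain feature, NEBNext overlaps no TailorMix library for _4347, and TruSeq is highest for _4344.

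Reads of uc012ath.2 were scattered over many rare sequences in all libraries. Of its sequences, 56.3% and 56.5% were seen once in NEBNext, 58.3% and 58.4% in TruSeq, and 54.5% and 56.2% in TailorMix. piRNA sequences made up 32.1% and 32.6% of all listed sequences other than miRNA in NEBNext, 15.2% and 14.3% in TruSeq, and 41.3% and 40.6% in TailorMix. The same sequences carried 0.0925% to 0.486% of the reads of that list, so piRNA was a large class by number of sequences and a small one by reads.

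The mean number of reads per distinct piRNA sequence was 3.33 to 5.58 over the 6 libraries. It was 651 to 2103 for tRNA, 6.56 to 10.8 for rRNA, 3.66 to 8.29 for snRNA and 2.59 to 4.30 for snoRNA. The piRNA range overlapped those of snRNA and snoRNA and lay below those of rRNA and tRNA.

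uc012ath.2 reads were most concentrated on a few sequences in TruSeq, and the order of NEBNext and TailorMix depended on the measure. The most frequent sequence had 909 and 953 reads in NEBNext (2.48% and 2.69% of uc012ath.2 reads), 676 and 569 in TruSeq (6.51% and 6.66%), and 959 and 1058 in TailorMix (3.98% and 4.59%). The 10 most frequent sequences together held 13.7% and 14.2% in NEBNext, 29.0% and 29.4% in TruSeq, and 9.97% and 10.6% in TailorMix. To reach 50% of uc012ath.2 reads took 207 and 188 sequences in NEBNext, 42 and 43 in TruSeq, and 568 and 553 in TailorMix. The kits did not overlap in any of these 3 measures. By the leading sequence NEBNext was the least concentrated kit, and by the other measures TailorMix was.

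**Figure D5:**
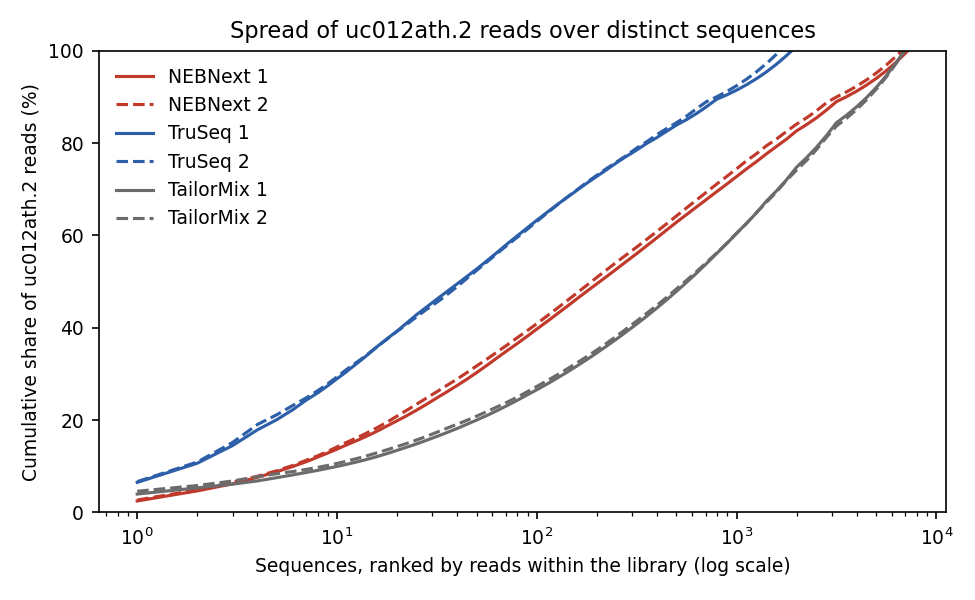
Cumulative share of uc012ath.2 reads (%) against the rank of a distinct sequence within its library (log axis), with replicate 1 solid and replicate 2 dashed. The TruSeq curves rise first, reaching 50% at 42 and 43 sequences, and the TailorMix curves last, at 568 and 553.

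Since more reads show more sequences, each library was thinned to 8538 uc012ath.2 reads, the lowest number in the 6 libraries. The expected number of distinct sequences was then 2943 and 2823 in NEBNext, 1680 and 1647 in TruSeq, and 3736 and 3775 in TailorMix. The means were 2883 ± 84.7, 1663 ± 23.1 and 3755 ± 27.6 (SD, n = 2), and TailorMix lay 2.26-fold above TruSeq and 1.30-fold above NEBNext. The exact permutation test gave p = 0.0667, the smallest possible (Benjamini-Hochberg adjusted p = 0.200).

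Thinned instead to the lowest annotated depth, piRNA sequences numbered 2623 and 3281 in NEBNext, 1156 and 1153 in TruSeq, and 6921 and 6818 in TailorMix, where p was again 0.0667 in the exact permutation test. At the deposited depth NEBNext and TailorMix were near each other, with 7207 and 6726 against 6921 and 6934 piRNA sequences. The wider gap at equal annotated depth goes with the larger share of piRNA reads in TailorMix.

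uc012ath.2_4346 alone showed the same order of the kits in this spread. Thinned to 6353 of its own reads, it had 2234 and 2156 expected sequences in NEBNext, 1040 and 1059 in TruSeq, and 2996 and 3055 in TailorMix. Its most frequent sequence held 0.941% and 0.625% of its reads in TailorMix, 3.31% and 3.63% in NEBNext, and 8.49% and 8.96% in TruSeq. The lists carry no bases, and a sequence's number is only its rank by reads within its library, so whether the leading sequence is the same in different libraries is not known.

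The other features did not follow the same order. uc012ath.2_4345, thinned to 1035 reads, had means of 353 ± 22.5 sequences in NEBNext, 334 ± 5.01 in TailorMix and 150 ± 16.7 in TruSeq (SD, n = 2). Its leading sequence alone held 33.0% and 35.2% of its reads in TruSeq, 19.6% and 21.3% in TailorMix, and 14.9% and 11.5% in NEBNext, and was the most frequent uc012ath.2 sequence of both TailorMix libraries. uc012ath.2_4344, thinned to 352 reads, was most varied in NEBNext, with 240 ± 9.86 sequences against 178 ± 5.04 in TruSeq and 161 ± 14.01 in TailorMix (SD, n = 2). uc012ath.2_4347, thinned to 306 reads, had fewest in NEBNext, with 117 ± 0.834 against 139 ± 9.21 in TruSeq and 167 ± 4.34 in TailorMix (SD, n = 2). The kit in which _4347 was most abundant thus gave the fewest of its sequences per read, and the kit in which _4345 was most abundant did not. These per-feature values were not tested.

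The 68 other piRNA features were at the limit of detection, with 1 exception. They had 15 and 20 reads in NEBNext, 32 and 752 in TruSeq, and 10 and 16 in TailorMix. Of the 752 reads in TruSeq replicate 2, 732 came from 1 sequence assigned to uc029tqd.1, which had 0 reads in the other 5 libraries. This was 77.7 RPM, 7.88% of the piRNA reads of that library, and more than its leading uc012ath.2 sequence, which had 569 reads. A count of 0 allows up to 0.258 RPM in TruSeq replicate 1 (3 counts in that library), so uc029tqd.1 was at least 301-fold higher in replicate 2. Fitted without the filter on low counts, edgeR called uc029tqd.1 higher in TruSeq than in NEBNext and TailorMix (Benjamini-Hochberg adjusted p of 0.0257 and 0.0334), although only 1 of the 2 TruSeq libraries had any read of it.

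Without uc029tqd.1, TruSeq replicate 2 had 20 reads of other piRNA features, and the 6 libraries had 10 to 32. This was 0.571 and 1.18 RPM in NEBNext, 2.75 and 2.12 in TruSeq, and 1.94 and 3.02 in TailorMix, and the exact permutation test gave p = 0.200, against 0.267 with uc029tqd.1 included. TruSeq and TailorMix overlapped, and both NEBNext libraries were lowest. The share of piRNA reads that was uc012ath.2 was 99.7% in TruSeq replicate 1, 91.9% in TruSeq replicate 2 and at least 99.9% in the other 4 libraries (p = 0.133 in the exact permutation test).

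Few of the other features recurred. Of the 68, 54 were seen in 1 library, 12 in 2 libraries and 2 in 3 libraries, and 42 had 1 read in all. Only 9 were seen in both libraries of at least 1 kit. The NEBNext libraries had 13 and 14 of them and shared 3 (23.1% and 21.4% of each list), the TruSeq libraries 18 and 19 and shared 4 (22.2% and 21.1%), and the TailorMix libraries 9 and 11 and shared 2 (22.2% and 18.2%).

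A count of 4 reads in any library was reached by 4 of the 68 features. Besides uc029tqd.1, uc029vjt.1 had 4 reads in TruSeq replicate 1, 4 in TailorMix replicate 2 and 0 elsewhere, and was the only one to pass the filter of the edgeR test, where no comparison called it. uc029qyf.1 had 5 reads in NEBNext replicate 2 and 1 in TailorMix replicate 1, and uc029tms.1 had 5 reads in TruSeq replicate 1. The 2 features seen in 3 libraries, uc029tsj.1 and uc029wcg.1, had at most 3 reads in any of them. The 10 most abundant of the 68 features in each kit came to 26 different features, of which 11 had a single read in each library that listed them.

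At equal depth, the number of piRNA features detected did not separate TruSeq from TailorMix. At the lowest annotated depth the expected number was 7.86 and 10.2 in NEBNext, 15.6 and 16.3 in TruSeq, and 14 and 15.7 in TailorMix. The TruSeq and TailorMix libraries overlapped, and the exact permutation test gave p = 0.133 (Benjamini-Hochberg adjusted p = 0.229). At the deposited depth, where TruSeq libraries had more annotated reads than TailorMix libraries, the kits did not overlap. NEBNext then had 18 and 19 features, TruSeq 23 and 24, and TailorMix 14 and 16 (p = 0.0667 in the exact permutation test, the smallest possible).

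The features whose share across the 6 libraries was most like that of uc012ath.2 were 3 miRNAs and 2 tRNA features. Among 453 features with at least 4 counts in all libraries, the highest Pearson correlations of log2 share were those of MIMAT0000515 (0.990), MIMAT0014856 (0.989), tRNA84-AspGTC (0.988), tRNA704-GlyGCC (0.987) and MIMAT0000669 (0.984). The 6 points are 3 pairs of libraries that share a kit, so these values describe the order of the kits and no relation between the RNAs was tested.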

How the data were processed

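For each of 6 libraries the authors deposited raw read counts, not normalized: 1 list of miRNAs and 1 list of distinct sequences with a class and a feature name. The methods of the study give Cutadapt 1.8.1 for adaptor trimming (reads under 15 bp were dropped), FASTX-Toolkit 0.0.14 for quality filtering, Bowtie 1.1.2 for mapping without mismatches, and annotation by position from miRBase 20, UCSC tracks of GRCm38 and Ensembl 84. How a read with several positions was assigned is not given in the sources used here. The lists hold no bases, lengths or coordinates and the reference used here lists no UCSC names, so no sequence or position is given.

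Sequences whose class is exactly piRNA were summed by feature, and those under several classes, 2 to 205 reads per library, were left out. Shares carry 95% Wilson intervals, and a count of 0 allows 3 counts. Single values were compared by the F ratio of kit in an exact permutation test (two-sided, 15 groupings). Feature counts were tested with edgeR 4.0.16 (R 4.3.3, glmQLFit and glmQLFTest, no normalization factor, all 6 libraries), and the SE of a log2 fold change is its size divided by the square root of F. Numbers at equal depth are hypergeometric expectations. Alternatives were TMM, DESeq2 1.42.0, other filters and denominators, a replicate block and single libraries left out. Python 3.11.15, pandas 2.3.3, numpy 2.4.6, scipy 1.17.1 and matplotlib 3.10.9 were used, and the tests were tested on simulated data.

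Over the 5 uc012ath.2 features, chi-square divided by its degrees of freedom for the 2 libraries of a kit was 10.4 (NEBNext), 5.72 (TruSeq) and 4.10 (TailorMix), above counting noise. Over miRNAs it was 2.16, 15.0 and 1.59. The 2 libraries of a kit were counted as separate samples, but these values do not show that they come from different mice. Named features are uc012ath.2, the 10 most abundant other features of each kit, in each comparison the 3 largest called rises and falls, and the 5 features most like uc012ath.2. Of the second group only those with at least 4 reads in a library or seen in 3 libraries are named singly, a choice made after their values were seen. The members, the miRNA markers and the tests were chosen with earlier results of these data known, and equal uc012ath.2 reads, summed features and leaving out uc029tqd.1 were added after seeing the data.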

Additional observations from a re-analysis of the deposited data

Results flagged for a closer look

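Some sequences were listed under piRNA together with tRNA, snoRNA or snRNA, without a feature name. None counted as piRNA except in the alternative setting that added them, but all were part of the annotated reads. They were flagged because their reads exceeded the 3 counts that a count of 0 allows: 205 reads in NEBNext replicate 1, 130 in NEBNext replicate 2, 6 in TruSeq replicate 1, 61 in TailorMix replicate 1 and 42 in TailorMix replicate 2. TruSeq replicate 2 had 2 reads and was not flagged. In NEBNext and TailorMix most were listed under piRNA and tRNA (182, 125, 60 and 41 reads). In NEBNext replicates 1 and 2 and in both TailorMix libraries these reads outnumbered those of the 68 other piRNA features (15, 20, 10 and 16), and in the TruSeq libraries they did not (32 and 752). What they are was not tested.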

How the results depend on the processing

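Ratios between kits are log2 ratios of means. With reads other than tRNA as denominator, TailorMix against NEBNext turned to -0.56 for all piRNA, -0.56 for uc012ath.2 and -0.40 for other features. Other features turned to 0.025 between TailorMix and TruSeq without uc029tqd.1. The uc012ath.2 share of piRNA reads, TailorMix against NEBNext, turned to 0.0034 with reads of several classes counted and lay between -0.00030 and 0.00010 without single libraries. For the same pair, detected features turned to -0.30 at the deposited depth and 0 with at least 4 reads, and sequences to -0.0081 and -0.082. Calls without single libraries numbered 1 to 2 for TruSeq against NEBNext, 0 to 3 for TailorMix against NEBNext (0 without TailorMix replicate 2, 3 at an unadjusted p below 0.05 in edgeR, 3 in DESeq2 on all libraries) and 1 to 4 for TailorMix against TruSeq. The lone library left in a kit was then assumed to vary like the others. TailorMix against NEBNext had 1 call with the library size without tRNA, and TailorMix against TruSeq had 2 with TMM. With the uc012ath.2 features summed, and tRNA features summed by anticodon, there was 1 call in each comparison. The log2 fold changes were -0.95, 1.37 and 2.33, with edgeR adjusted p values (Benjamini-Hochberg) of 0.0134, 0.00316 and 0.000529. The medians of all features in that setting were -0.52, 1.23 and 1.82, and the share of all features called was not counted.

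Among single features, without single libraries the plain feature's share of uc012ath.2 reads lay between -0.40 and 0.58 for TailorMix against TruSeq (-0.34 without TailorMix replicate 2), that of _4344 between -0.14 and 0.20 (-0.054 without TailorMix replicate 1) and of _4346 between -0.018 and 0.0020 (0.0015 without NEBNext replicate 1) for TailorMix against NEBNext, of _4346 between -0.0018 and 0.041 for TruSeq against NEBNext, and of _4347 between -0.16 and 0.047 for TailorMix against TruSeq, which was 0.26 with sequences under 4 counts left out. With the library size without tRNA, the plain feature turned to -0.46 for TruSeq against NEBNext, and _4344 and _4346 to -0.52 and -0.56 for TailorMix against NEBNext. uc029vjt.1 turned to -0.18 with TMM and -0.030 in DESeq2 for TailorMix against TruSeq. With sequences under 4 counts left out, the plain feature was at 0 in NEBNext and gave no ratio. Beyond these, 258 results that answer a comparison kept the direction of their ratio or a similar number of calls, with no threshold checked. Of single features, 353 kept their direction, and where tested with edgeR or DESeq2 also their side of the threshold. There 36 calls were lost and 8 were gained.

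The replicate numbers were not shown to pair libraries: differences between replicates correlated at 0.0627 to 0.234 over 54 miRNAs and at -0.904 to 0.971 over the 5 uc012ath.2 features. With the replicate block, calls numbered 2, 2 and 3; those of _4344 for TailorMix against NEBNext (edgeR adjusted p = 0.0516, Benjamini-Hochberg) and of the plain feature for TailorMix against TruSeq (0.0551) were lost, and the smallest exact permutation p was 0.167. With 2 libraries per kit, no single value could reach 0.05 in the exact permutation test. In the main edgeR test, 67 of 73 piRNA features were too sparse for the filter.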
